A study of Homo sapiens with 54 samples.

Results

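The 36 genes described here are a fixed list of KRAB zinc finger genes of the tandem cluster at 19p13.11 to 19p12, on the short arm of human chromosome 19. They were chosen by symbol and position, 36 of 59368 genes in the deposited tables, and the rule used no expression value. Earlier results of these data were known when the list was chosen. From ZNF101 to ZNF254 they spanned chr19:19668796-24129968 (GRCh38, GENCODE annotation), 4.46 Mb with 19 genes on the plus strand and 17 on the minus strand, all annotated as protein-coding. The list leaves out 1 zinc finger gene inside that span, ZNF723 (chr19:22832291-22858667, between ZNF99 and ZNF728), which had at most 5.08 counts in any library and is counted below among the other zinc finger genes of chromosome 19. The cells were 3 human colorectal cancer lines, HCT-116, DLD-1 and HT-29, each as the parental line sensitive to 5-fluorouracil (5-FU) and as a line made resistant by long passage in rising 5-FU. Each of these 6 was exposed for 24 h to 10 µM uracil as control, to 10 µM 5-FU, or to 10 µM 5-FU with irradiation at the median lethal dose of that line, which gave 18 conditions with 3 libraries each and 54 libraries in all. The resistant lines had been kept in 5-FU before the exposure, and each was 1 selected population, so a resistant line was a single instance of resistance in its background.

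KRAB zinc finger proteins form the largest family of human transcription factors. Their C2H2 fingers bind DNA, most often within transposable elements, and the KRAB domain recruits the corepressor TRIM28, which brings the histone methyltransferase SETDB1, HP1 proteins and DNA methyltransferases to the bound site. The 19p12 cluster grew by tandem duplication in primates, and its neighbouring genes are close relatives. ZNF91 is known to silence SVA retrotransposons and ZNF93 to silence a class of LINE-1 elements, and ZNF675 has been described as a brake on TRAF6 signalling. For most of the others no target is widely established.

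The promoters of the members shared short sequences. RefSeq promoter windows of 300 bases, from 250 before to 50 after the start (GRCh38.p14), were found for 28 members in 29 windows. The 7 letters CCAATCA, a form of the CCAAT box that the factor NF-Y binds, stood on one strand or the other in 28 of these 29 windows (96.6%), against 15.9% of 232 windows of other zinc finger genes on chromosome 19 and 6.95% of all 35116 windows. Of the 12-letter runs that contain it, the one in most member windows was GTCCAATCAGGC, which stood in 18 of the 29 (62.1%), in 1 of the 232 and in 32 of all 35116 (0.0911%). That run was picked from these member windows, so a higher share in them was partly built in. The members had a median of 10.0 CpG dinucleotides per window, with a range of 8 to 18, and the median of all windows was 14. The 6 windows below are shown because their genes carry the results: ZNF708, ZNF724, ZNF91 and ZNF675 fell to under 1 TPM in resistant HCT-116 cells, and ZNF430 and ZNF714 were not. They are written 5′ to 3′ along the gene's own strand, with CCAATCA in capitals.
ZNF708 (chr19:21329361-21329660, minus strand): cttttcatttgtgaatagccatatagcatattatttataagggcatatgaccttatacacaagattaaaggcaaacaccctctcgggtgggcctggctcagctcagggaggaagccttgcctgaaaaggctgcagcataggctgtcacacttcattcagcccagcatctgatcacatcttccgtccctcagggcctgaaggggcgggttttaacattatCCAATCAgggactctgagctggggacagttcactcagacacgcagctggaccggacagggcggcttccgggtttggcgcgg
ZNF724 (chr19:23250345-23250644, minus strand): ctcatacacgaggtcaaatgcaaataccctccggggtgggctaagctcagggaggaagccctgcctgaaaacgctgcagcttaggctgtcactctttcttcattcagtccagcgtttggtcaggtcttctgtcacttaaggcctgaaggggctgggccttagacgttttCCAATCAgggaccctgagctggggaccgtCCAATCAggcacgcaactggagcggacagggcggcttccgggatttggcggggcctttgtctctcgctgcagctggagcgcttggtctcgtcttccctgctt
ZNF91 (chr19:23395422-23395721, minus strand): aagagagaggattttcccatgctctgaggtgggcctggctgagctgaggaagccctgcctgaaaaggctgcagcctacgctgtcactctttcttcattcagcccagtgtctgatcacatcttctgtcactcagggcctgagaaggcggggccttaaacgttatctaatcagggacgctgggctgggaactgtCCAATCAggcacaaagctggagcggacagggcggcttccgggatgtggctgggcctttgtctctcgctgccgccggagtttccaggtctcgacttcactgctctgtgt
ZNF675 (chr19:23687163-23687462, minus strand): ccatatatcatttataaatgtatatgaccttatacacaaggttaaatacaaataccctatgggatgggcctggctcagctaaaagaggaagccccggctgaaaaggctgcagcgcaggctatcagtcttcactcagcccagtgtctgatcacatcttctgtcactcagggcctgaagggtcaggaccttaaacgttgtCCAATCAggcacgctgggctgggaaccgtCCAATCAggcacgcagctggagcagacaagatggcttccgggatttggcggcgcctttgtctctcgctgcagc
ZNF430 (chr19:21020407-21020706, plus strand): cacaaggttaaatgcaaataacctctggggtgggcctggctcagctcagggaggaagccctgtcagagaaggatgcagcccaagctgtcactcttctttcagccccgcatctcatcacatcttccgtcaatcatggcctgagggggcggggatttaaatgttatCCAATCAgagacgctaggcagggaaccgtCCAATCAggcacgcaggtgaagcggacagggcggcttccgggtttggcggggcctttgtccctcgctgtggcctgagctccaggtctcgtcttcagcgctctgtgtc
ZNF714 (chr19:21081953-21082252, plus strand): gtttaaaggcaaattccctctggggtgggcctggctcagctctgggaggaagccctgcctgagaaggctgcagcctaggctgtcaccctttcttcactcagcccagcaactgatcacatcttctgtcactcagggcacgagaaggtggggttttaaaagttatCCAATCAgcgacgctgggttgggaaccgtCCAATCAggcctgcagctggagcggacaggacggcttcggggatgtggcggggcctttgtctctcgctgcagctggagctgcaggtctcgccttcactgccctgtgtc
On the printed strand, CCAATCA stood at 2 places in ZNF724, ZNF675, ZNF430 and ZNF714 and at 1 place in ZNF708 and ZNF91. Members that fell in resistant HCT-116 cells and members that were not called there carried the same letters, and a match is a description of the window, not of binding. No window was found for ZNF506, ZNF253, ZNF738, ZNF676, ZNF729, ZNF98, ZNF99 and ZNF728.

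The study also measured ZNF708 and ZNF91 by RT-qPCR, with the primers below.
ZNF708 forward primer: gagccctggaatatgaagagacacg
ZNF708 reverse primer: gctcatccacacttttacagcctttc
ZNF91 forward primer: tgctctgtgtcctctgctccag
ZNF91 reverse primer: gccacatccctaaatgtcaacagtcc
Both ZNF708 primers matched all 4 of the gene's annotated transcripts and a single place each on chromosome 19, chr19:21309267-21309291 and chr19:21294614-21294639. The ZNF91 primers each matched 4 of the gene's 12 annotated transcripts. The ZNF91 forward primer matched 1 place, chr19:23395410-23395431, and the reverse primer matched 5 places on the chromosome, the one in ZNF91 among them. Of the distinct 31-base words in the members' transcripts, the word length kallisto uses, between 4.82% and 60.7% (median 16.0%) also occurred in transcripts of another gene. The highest share was that of ZNF724 (60.7%), followed by ZNF98 (49.9%) and ZNF492 (44.2%), so their estimated counts depended most on how shared reads were divided. The longest open reading frames of the members' transcripts coded for a median of 13 C2H2 fingers. ZNF738 had the fewest, 5, and ZNF208 the most, 36, with 31 in ZNF91.

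Total estimated counts ran from 39.0 to 218.5 M (mega) per library, the highest being a sensitive DLD-1 uracil library. Each line's identity was read from genes at 10 TPM or more (TPM scales counts by transcript length and library size) in the 3 uracil libraries of one sensitive line and at most 0.1 TPM in those of the other lines. The resistant DLD-1 libraries held 16 of 17 DLD-1 genes and the resistant HCT-116 libraries 44 of 46 HCT-116 genes, each at 1 TPM or more. The 9 libraries labelled resistant HT-29 held 0 of the 5 HT-29 genes and 44 of the 46 HCT-116 genes. They went against their label, are called "libraries labelled resistant HT-29" throughout, and were compared with sensitive HCT-116 cells as well as with sensitive HT-29 cells. EPCAM, an epithelial adhesion molecule, and the keratins KRT8 and KRT18 were above 200 TPM on average in every uracil group. CDX1 was below 0.2 TPM in the 3 sensitive lines. With uracil, 9 of 10 colorectal epithelial markers were at a mean of 1 TPM or more in sensitive DLD-1 cells. It was 7 in sensitive HT-29 and 6 in sensitive HCT-116 cells. Resistant DLD-1 had 8, resistant HCT-116 had 6 and the libraries labelled resistant HT-29 had 6. Of 8 markers of fibroblasts, endothelium and leukocytes, the summed level was 2.40 to 7.74 TPM in the sensitive DLD-1 and HT-29 uracil libraries and 23.9 to 33.8 TPM in the HCT-116 uracil libraries, sensitive or resistant, with 0 to 2 of the 8 at a mean of 1 TPM or more. COL1A1 and CD68 made up most of the latter. With uracil the sum was 3.23 to 5.55 TPM in resistant DLD-1, with 2 of the 8 at a mean of 1 TPM or more. In the libraries labelled resistant HT-29 it was 24.61 to 29.05 TPM, with 3 of the 8. The part of these markers in the results below was not tested. In bulk RNA a lower level in all cells and fewer cells with the RNA cannot be told apart. The study describes the 3 libraries of a condition as biological triplicates, and p-values measure the spread between them within 1 population of each line.

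Expression within the cluster was uneven. A mean of 1 TPM or more was reached by 17 of the 36 members in at least 1 of the 18 conditions, and by 6 in all 18, which were ZNF101, ZNF14, ZNF506, ZNF430, ZNF714 and ZNF431. The other 19 peaked at group means between 0.00614 TPM (ZNF729) and 0.779 TPM (ZNF737). They were not spread evenly along the chromosome, since 10 consecutive members, from ZNF43 to ZNF730, never reached 1 TPM, and the 8 members from ZNF257 to ZNF730 never exceeded 0.261 TPM. ZNF729 and ZNF98 had at most 3 counts in every library and were not measured here. ZNF101 had the highest mean over all libraries (8.75 TPM) and ZNF714 the next (8.39 TPM). Under uracil, ZNF101 was at 12.4, 10.8 and 11.2 TPM in sensitive DLD-1 libraries, and its group mean over the 18 conditions ran from 4.25 to 11.5 TPM.

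**Figure D1:**
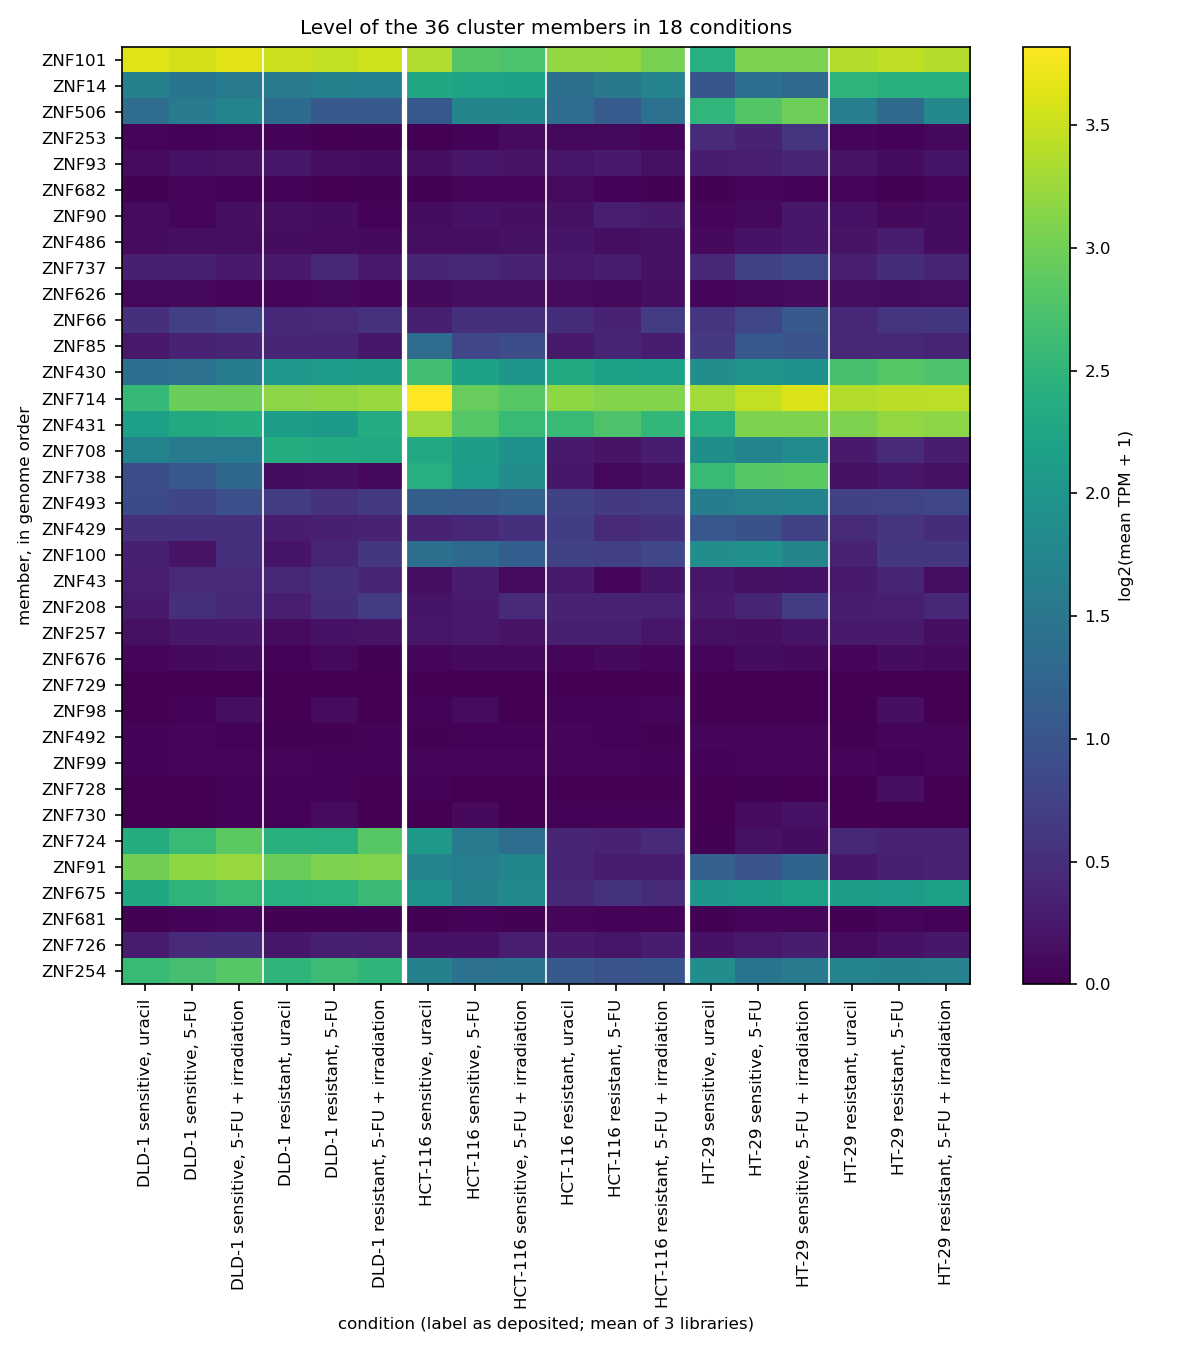
Heat map of the mean level (log2 of mean TPM plus 1, n = 3 libraries) of the 36 members, in genome order from top to bottom, in the 18 conditions as labelled. The dark band from ZNF43 to ZNF730 stays below 1 TPM everywhere, and ZNF708, ZNF738, ZNF724, ZNF91 and ZNF675 go dark in resistant HCT-116.

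The 3 sensitive lines under uracil shared many active members and differed in their number and levels. In sensitive DLD-1 cells 11 members were at 1 TPM or more, led by ZNF101 at 11.5 ± 0.81 TPM (SD, n = 3), ZNF91 at 6.93 ± 0.35 and ZNF254 at 5.00 ± 0.30. In sensitive HCT-116 cells 15 members were at 1 TPM or more, led by ZNF714 at 12.7 to 13.6 TPM, ZNF101 at 9.27 ± 0.23 and ZNF431 at 8.56 ± 0.74, the last pair lying within about 1 SD of each other. In sensitive HT-29 cells 14 members were at 1 TPM or more, and after ZNF714 at 8.74 ± 0.13 TPM, ZNF738 (5.02 ± 0.48), ZNF506 (4.71 ± 1.00), ZNF431 (4.28 ± 1.55) and ZNF101 (4.25 ± 0.20) lay within their spread.

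Between lines, each comparison was made with edgeR's quasi-likelihood test in 1 fit of all 54 libraries, and a member was called at a Benjamini-Hochberg adjusted p of 0.01 or less with at least a 2-fold difference. Of 26 members tested, 3 were lower and 6 higher in sensitive HCT-116 than in sensitive DLD-1 cells, with 14.2% of all genes called lower and 16.6% higher. ZNF91 was lower by 1.56 on the log2 scale ± 0.12 (SE, adjusted p = 1.3e-16) and ZNF254 by 1.09 ± 0.11, while ZNF100 was higher by 3.19 ± 0.24 and ZNF85 by 3.18 ± 0.32. Sensitive HT-29 cells had 3 members lower and 9 higher than DLD-1 (17.4% and 13.4% of all genes) and 3 lower and 5 higher than HCT-116 (20.9% and 16.7%). In HT-29 cells ZNF506 was higher than in DLD-1 by 2.53 ± 0.15 and than in HCT-116 by 2.70 ± 0.16. ZNF724 was called lower in HT-29 against both lines. Its 3 sensitive HT-29 uracil libraries held 1.00, 2.01 and 1.00 counts, so no fold is given, beside 4.14 ± 0.15 TPM in DLD-1 and 3.16 ± 0.083 TPM in HCT-116.

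The first question of the design was which members differed between resistant and sensitive cells of a line under uracil. In DLD-1 most of the tested members were not called. Of 23 members tested, 1 fell and 2 rose, with 2.01% of all tested genes called lower and 3.69% called higher. The median log2 fold change was 0.05 over the members and -0.01 over all genes. By library, 2 members lay wholly below and 3 wholly above the sensitive libraries, where 17.6% and 19% of all genes did.

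ZNF738 was the member that fell in resistant DLD-1. Its levels were 0.783, 1.15 and 0.704 TPM in the sensitive libraries and 0.00, 0.187 and 0.105 TPM in the resistant ones. The groups did not overlap, and the log2 fold change was -3.46 ± 0.45 (SE, n = 3 against 3, edgeR adjusted p = 3.12e-06), on at most 6 counts in a resistant library. It ranged from -4.41 (without resistant replicate 2) to -2.93 (without resistant replicate 1) when 1 library was left out. ZNF708 rose, from 2.13, 2.02 and 2.79 TPM to 4.02, 4.03 and 4.35 TPM. All 3 resistant libraries lay above the sensitive ones, with a log2 fold change of 1.05 ± 0.11 (edgeR adjusted p = 8.69e-08), and without resistant replicate 3 it was 0.98, just under the 2-fold limit. ZNF430 rose from 1.89, 1.42 and 1.60 TPM to 2.64, 3.28 and 3.32 TPM, again without overlap, by 1.11 ± 0.10 (adjusted p = 2.34e-08).

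ZNF714, between ZNF430 and ZNF708 on the chromosome, went from 5.25, 4.99 and 4.42 TPM to 7.58, 7.82 and 8.43 TPM, a log2 fold change of 0.75 ± 0.07 (edgeR adjusted p = 4.66e-08) that did not reach 2-fold. ZNF91 was at 7.34, 6.78 and 6.68 TPM in sensitive and 7.11, 6.58 and 6.75 TPM in resistant DLD-1 cells, with overlapping groups and a log2 fold change of 0.11 ± 0.07 (adjusted p = 0.271). ZNF724 gave 3.97, 4.26 and 4.19 TPM against 3.99, 4.52 and 4.58 TPM, and ZNF675 gave 3.67, 3.84 and 4.01 TPM against 3.77, 4.49 and 4.61 TPM. Neither passed, and their groups overlapped.

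Resistant HCT-116 cells differed across the cluster. Of 24 members tested, 9 fell and none rose, with 6.8% of all tested genes called lower and 4.17% called higher. DESeq2 also called 9 and 0, and at an unadjusted edgeR p under 0.05 there were 13 lower and 1 higher. The median log2 fold change was -0.31 over the members and 0.00 over all genes. The 3 resistant libraries lay wholly below the sensitive ones for 14 members and wholly above for 2, where 26.7% and 26.6% of all genes did. As shares, 37.5% of the tested members were lower, beside 19.8% of 172 other zinc finger genes on chromosome 19, whose median was -0.01.

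Of these 9, 7 fell by more than 2 on the log2 scale. In genome order they were ZNF85, then ZNF708, ZNF738 and ZNF100, and then the adjacent ZNF724, ZNF91 and ZNF675. ZNF708 went from 4.05, 4.56 and 3.16 TPM in the sensitive libraries to 0.215, 0.189 and 0.245 TPM in the resistant ones. That is a log2 fold change of -4.04 ± 0.17 (edgeR adjusted p = 2.1e-14), opposite in direction to DLD-1. ZNF738, its neighbour, went from 3.42, 5.20 and 4.23 TPM to 0.140, 0.117 and 0.294 TPM, and fell by 4.80 ± 0.35 (adjusted p = 1.19e-10), or -5.53 without resistant replicate 3. ZNF100 was at 1.71, 1.61 and 1.62 TPM in sensitive cells and 0.268, 1.36 and 0.376 TPM in resistant ones. Resistant replicate 2 was high in TPM for this gene, although this library held 22.2 counts beside 12.4 and 19.5 in the other resistant ones, and the fold change on counts was -2.72 ± 0.23 (adjusted p = 1.95e-09).

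Toward the centromere, ZNF724 went from 3.07, 3.16 and 3.24 TPM to 0.276, 0.195 and 0.517 TPM and fell by 4.41 ± 0.26 (edgeR adjusted p = 3.34e-12). ZNF91, the silencer of SVA elements, went from 1.98, 2.48 and 2.33 TPM to 0.371, 0.115 and 0.505 TPM and fell by 3.67 ± 0.21 (adjusted p = 2.53e-12). ZNF675 went from 2.63, 2.49 and 3.59 TPM to 0.346, 0.265 and 0.454 TPM, and fell by 3.23 ± 0.18 (adjusted p = 2.27e-12). For each of these 3 neighbours every resistant library lay below every sensitive one.

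ZNF85, the farthest of the 7 from the centromere, went from 1.49, 1.87 and 1.40 TPM to 0.162, 0.225 and 0.262 TPM, a log2 fold change of -2.70 ± 0.33 (edgeR adjusted p = 5.18e-07). Smaller falls were those of ZNF14, from 3.71, 4.11 and 3.75 TPM to 1.71, 1.62 and 1.64 TPM (-1.25 ± 0.11, adjusted p = 3.02e-09), and of ZNF254, from 2.22, 2.14 and 2.28 TPM to 0.960, 0.978 and 1.41 TPM (-1.09 ± 0.15, adjusted p = 2.02e-06). Both were without overlap, and ZNF254 gave -0.95 when resistant replicate 2 was left out. Among the members between ZNF85 and ZNF708, and at the telomeric end, ZNF430 (-0.36 ± 0.09), ZNF714 (-0.57 ± 0.07) and ZNF101 (-0.07 ± 0.08) did not reach 2-fold. ZNF714 still gave 7.83, 7.92 and 8.21 TPM in resistant HCT-116 cells, after 12.7, 13.6 and 12.9 TPM in sensitive ones. ZNF430 gave 4.94, 5.86 and 5.14 TPM in sensitive and 3.80, 4.30 and 3.96 TPM in resistant cells.

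**Figure D2:**
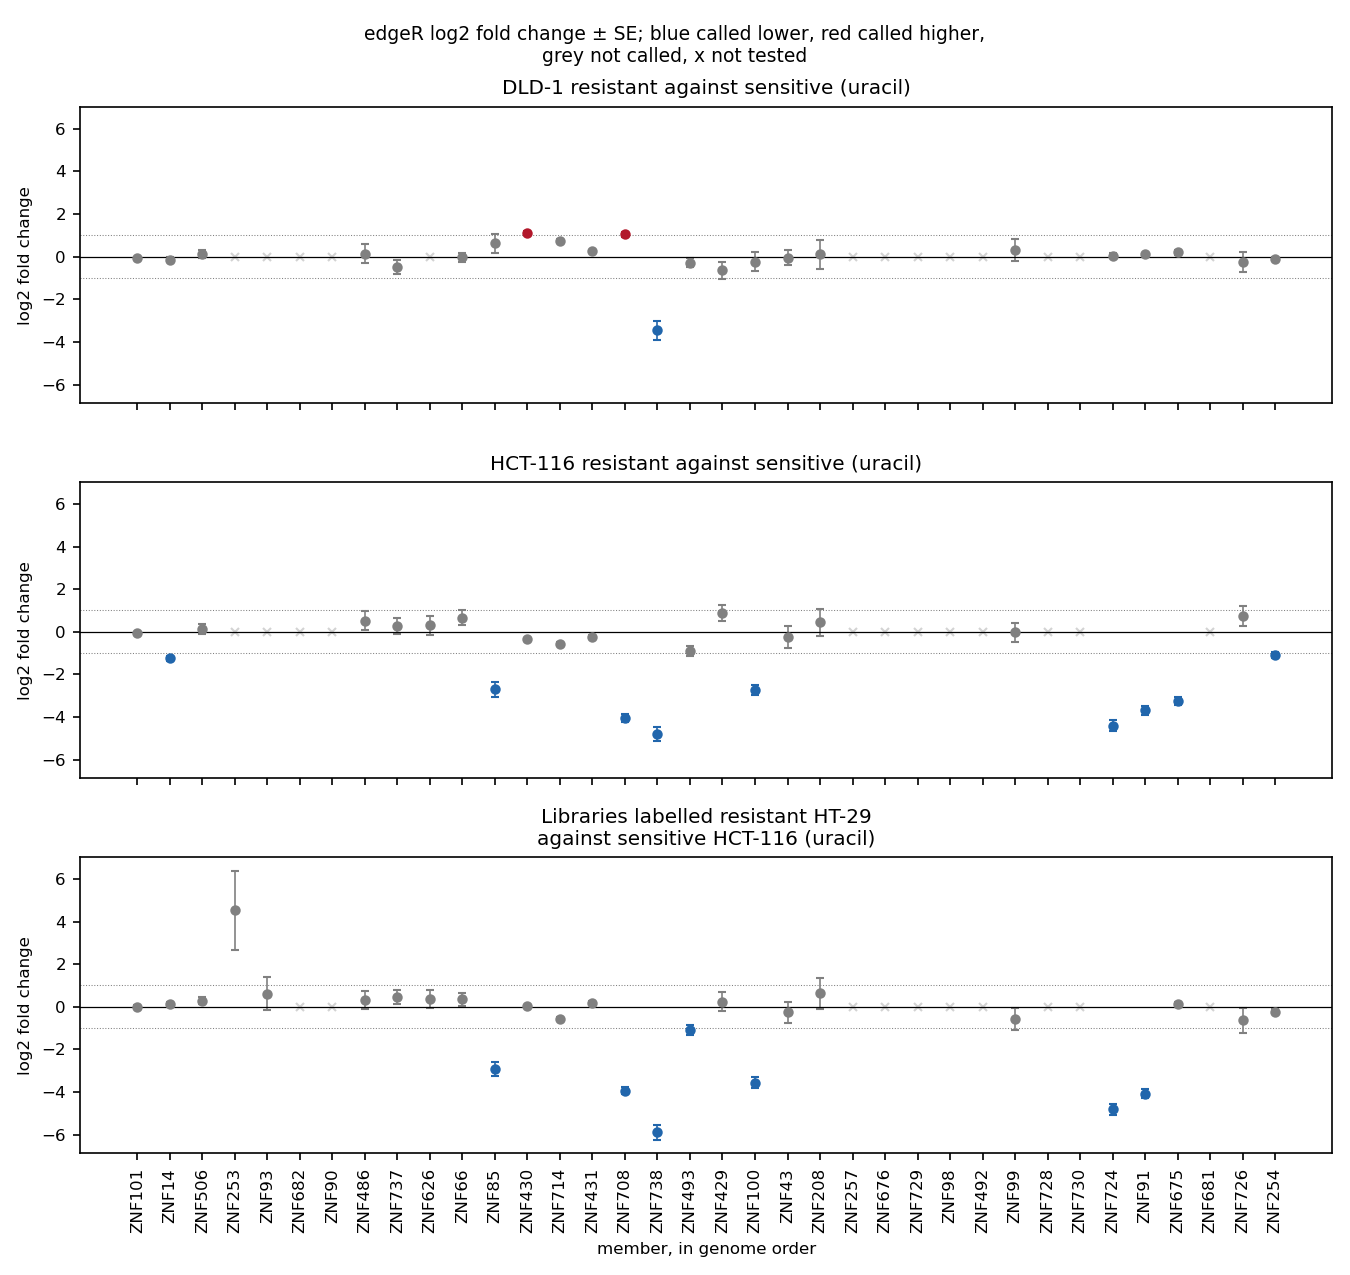
edgeR log2 fold change ± SE (n = 3 against 3 libraries, uracil) of each member in genome order, for DLD-1 resistant against sensitive cells, HCT-116 resistant against sensitive cells, and libraries labelled resistant HT-29 against sensitive HCT-116. Blue points were called lower, red points higher, grey points neither, crosses were not tested and dotted lines mark a 2-fold difference. The deep falls at ZNF708, ZNF738, ZNF724 and ZNF91 stand in both lower panels, while ZNF675 falls in the middle panel alone of the 3.

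Summed over the 36 members under uracil, expression was 66.4 ± 3.63 TPM in sensitive and 35.7 ± 1.36 TPM in resistant HCT-116 cells (SD, n = 3). In DLD-1 it was 52 ± 1.53 TPM in sensitive and 56.1 ± 2.72 TPM in resistant cells, and it was 48.8 ± 3.74 TPM in the libraries labelled resistant HT-29. The median over members of log2(TPM + 1), which is set by the many low members, was 0.28 ± 0.05 in sensitive and 0.29 ± 0.03 in resistant HCT-116 cells and so did not follow the sum.

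At the transcript level, under uracil the main ZNF675 transcript, ENST00000359788, was at 2.14 TPM in sensitive HCT-116 cells and 0.00 TPM in resistant ones, while ENST00000600313 was at 0.306 and 0.144 TPM. The ZNF724 transcript ENST00000418100 went from 2.43 to 0.0489 TPM, and ENST00000597037 was at 0.288 and 0.215 TPM. The ZNF91 transcript ENST00000300619 went from 1.08 to 0.0464 TPM in HCT-116, and was at 3.29 and 3.88 TPM in DLD-1. These are means of 3 libraries and were not tested, and the split between transcripts of a gene is an estimate.

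The resistance effect itself differed between the lines. A test of the difference, HCT-116 effect minus DLD-1 effect under uracil, called 9 members lower and 1 higher of 26, with 7.73% and 4.21% of all genes. The largest was ZNF708, at -5.07 ± 0.21 (edgeR adjusted p = 1.63e-25), followed by ZNF724 at -4.45 ± 0.27, ZNF91 at -3.77 ± 0.22 and ZNF675 at -3.42 ± 0.21. ZNF738 fell in both lines and was not among them. The 1 higher was ZNF253, which had 0.00 counts in all sensitive HCT-116 uracil libraries and at most 7.02 in resistant ones, and whose fitted value has no stable size.

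The libraries labelled resistant HT-29 were set against sensitive HCT-116 cells, whose marker genes they carried. This comparison shares its 3 sensitive libraries with the HCT-116 comparison above, so the values are given side by side and not as a separate line of evidence. Of 26 members, 7 were lower and 0 higher by edgeR, with 4.6% of all genes called lower and 2.27% higher. DESeq2 gave 7 and 0, and at an unadjusted edgeR p under 0.05 there were 8 lower and 2 higher. By library, 9 members lay wholly below and 3 wholly above, where 16.1% and 30.8% of all genes did. ZNF708 was at 0.257, 0.205 and 0.169 TPM in these libraries (-3.94 ± 0.17, edgeR adjusted p = 7.93e-25). ZNF738 was at 0.0194, 0.271 and 0.0864 TPM (-5.89 ± 0.36), and ZNF724 at 0.330, 0.485 and 0.245 TPM (-4.82 ± 0.24). The ZNF738 values rest on 1.00, 6.13 and 2.49 counts, and its log2 fold change was -6.90 without the second of these libraries. For ZNF708, ZNF738 and ZNF724, all libraries labelled resistant HT-29 lay below every sensitive HCT-116 library. ZNF91 was at 0.268, 0.153 and 0.152 TPM (-4.08 ± 0.21), ZNF100 at 0.412, 0.216 and 0.234 TPM (-3.55 ± 0.28) and ZNF85 at 0.513, 0.204 and 0.312 TPM (-2.92 ± 0.34). ZNF493, at 1.04, 1.21 and 1.41 TPM in sensitive HCT-116 and 0.642, 0.734 and 0.668 TPM here, was lower by 1.10 ± 0.24 (adjusted p = 1.54e-04), and by 0.96 with a replicate block, which put it under the 2-fold limit.

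ZNF675 and ZNF14 differed between the libraries labelled resistant HT-29 and resistant HCT-116. In the libraries labelled resistant HT-29, ZNF675 was at 3.39, 3.45 and 3.43 TPM and ZNF14 at 4.63, 4.83 and 4.45 TPM, and neither was called against sensitive HCT-116 (0.12 ± 0.13 and 0.13 ± 0.10). A direct comparison with resistant HCT-116, added after these values had been seen, called ZNF675 higher by 3.35 ± 0.17 (edgeR adjusted p = 1.38e-21) and ZNF14 by 1.37 ± 0.10 (adjusted p = 1.3e-15), and no member lower. Among all genes 1.61% were called higher and 1.75% lower, and at an unadjusted p under 0.05 there were 5 members higher and 2 lower. The adjacent ZNF724 and ZNF91 were low in both populations, with differences of -0.42 ± 0.39 and -0.42 ± 0.32 (adjusted p = 0.507 and 0.385).

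**Figure D3:**
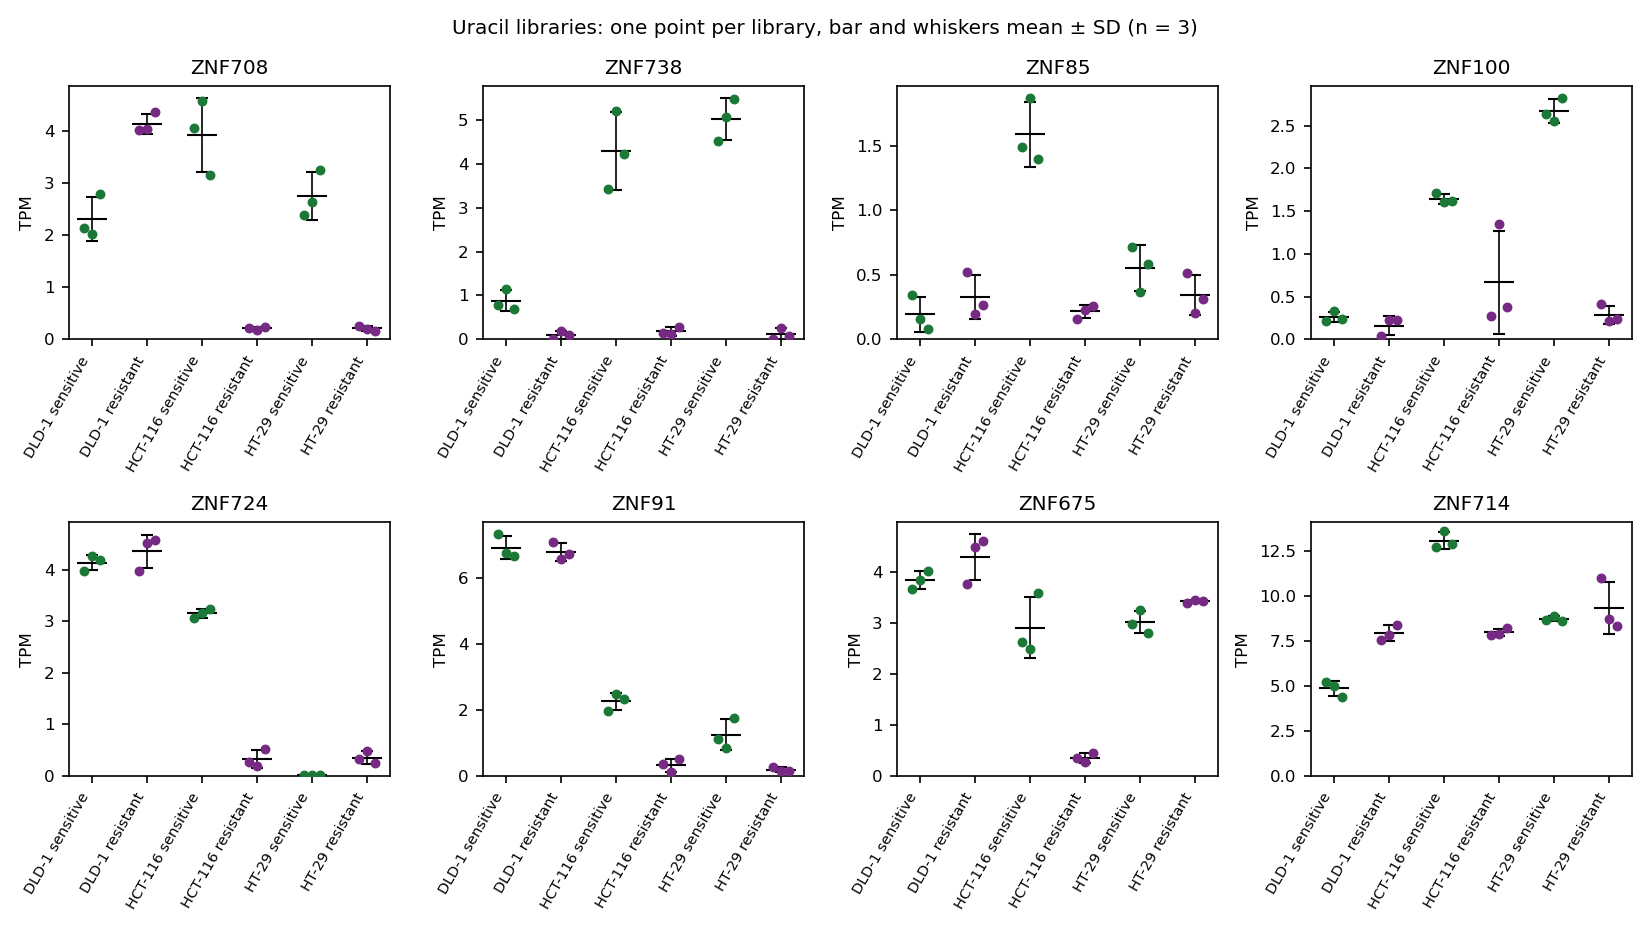
Level in TPM of 8 members in each uracil library (points, green for sensitive and purple for resistant labels), with the mean and SD of 3 libraries as bar and whiskers, by line and sensitivity as labelled. ZNF675 sits between 3.39 and 3.45 TPM in the libraries labelled resistant HT-29 and between 0.265 and 0.454 TPM in resistant HCT-116, whereas ZNF708 is below 0.3 TPM in both.

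Against sensitive HT-29 cells, their label's own control, the same libraries had 10 of 25 members lower and 1 higher, where 18% and 21.4% of all genes were called. The groups carried different lines' marker genes, so line and resistance cannot be told apart here. The same 11 members were called with 5-FU (21% of all genes lower and 21.7% higher) and with irradiation added (20.3% and 22.1%). ZNF506 was among the lower members (-2.42 ± 0.13, edgeR adjusted p = 3.34e-15) and ZNF14 was the higher one (1.83 ± 0.11, adjusted p = 8.81e-14). Both differed in the same direction between sensitive HCT-116 and sensitive HT-29 cells, where ZNF506 was higher in HT-29 and ZNF14 lower by 1.71 ± 0.11.

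The second question was whether the differences held under treatment. With 5-FU, 8 of 24 members were lower in resistant than in sensitive HCT-116 cells and 0 higher, with 8.03% of all genes lower and 5.28% higher. With 5-FU and irradiation it was 8 and 0, with 6.14% and 5.72%. DESeq2 gave the same counts, and 2 members were higher at an unadjusted edgeR p under 0.05 in each. ZNF85, ZNF708, ZNF738, ZNF100, ZNF724, ZNF91 and ZNF675 were lower in all 3 treatments, and ZNF493 joined them under both 5-FU treatments (-1.24 ± 0.24 and -1.40 ± 0.24). ZNF708 was at 3.42 ± 0.31 TPM in sensitive and 0.146 ± 0.092 TPM in resistant HCT-116 cells with 5-FU, and at 2.90 ± 0.043 and 0.219 ± 0.11 TPM with irradiation added (SD, n = 3). ZNF91 was at 2.09 ± 0.28 and 0.233 ± 0.12 TPM with 5-FU, and at 2.37 ± 0.21 and 0.228 ± 0.050 TPM with irradiation.

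In DLD-1, ZNF738 was lower and ZNF708 higher in all 3 treatments as well. With 5-FU that was 1 lower and 1 higher of 23 (5.23% and 3.88% of all genes), and with irradiation 2 lower and 1 higher (5.07% and 4.31%), the added one being ZNF66 at -1.01 ± 0.22. ZNF66 lost its call without resistant replicate 2 (-0.94), sensitive replicate 2 (-0.97) or sensitive replicate 3 (-0.90). ZNF708 with irradiation, at 1.11 ± 0.11, gave 0.99 without sensitive replicate 1. ZNF738 was at 1.07 ± 0.23 TPM in sensitive and 0.111 ± 0.053 TPM in resistant DLD-1 cells with 5-FU. ZNF708 was at 1.93 ± 0.27 and 4.02 ± 0.66 TPM. ZNF430, called under uracil, did not reach 2-fold with 5-FU (0.95 ± 0.10) or with irradiation added (0.87 ± 0.10).

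**Figure D4:**
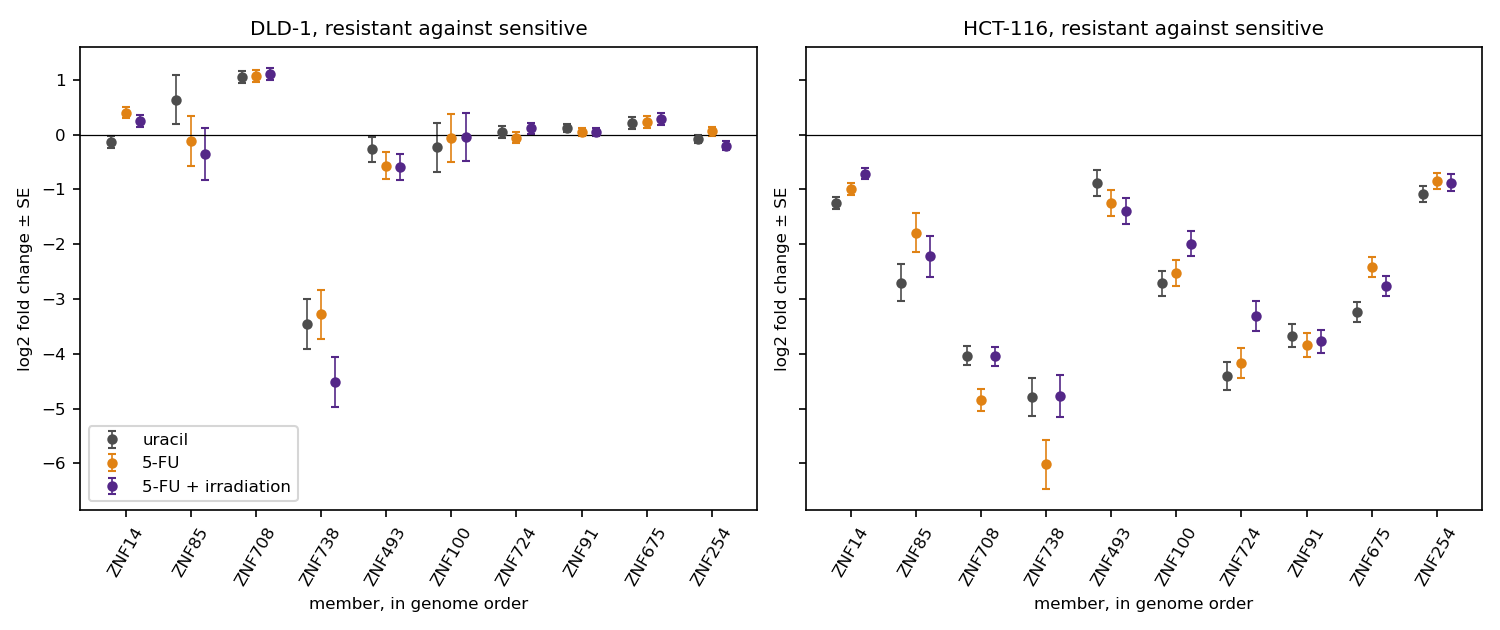
edgeR log2 fold change ± SE, resistant against sensitive cells, of 10 members in genome order under uracil, 5-FU, and 5-FU with irradiation (n = 3 against 3 libraries each) in DLD-1 and HCT-116. In HCT-116 all 10 lie below 0 in all treatments, and in DLD-1 ZNF708 lies near 1 and ZNF738 below -3.

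Across the 6 comparisons of 5-FU with uracil, 1 member was called, ZNF85 in sensitive HCT-116 cells, where 3.36% of all genes were called lower. In either direction, 8.14% of all genes were called in sensitive HCT-116, 4.02% in sensitive DLD-1 and 12.2% in sensitive HT-29 cells. In the groups labelled resistant it was 0%, 0.0138% and 0.00421%, in the same order. It went from 1.59 ± 0.25 to 0.765 ± 0.15 TPM (-1.07 ± 0.28, edgeR adjusted p = 0.00304), and the call was lost when sensitive uracil replicate 2 or 5-FU replicate 1 or 2 was left out. In the same cells ZNF714 passed the adjusted p without reaching 2-fold (-0.86 ± 0.07, adjusted p = 1.14e-09), at 12.7 to 13.6 TPM with uracil and a mean of 6.62 TPM with 5-FU, as did ZNF101 (-0.56 ± 0.08). In sensitive HT-29 cells ZNF101 differed by 0.63 ± 0.07 in the other direction and ZNF254 by -0.92 ± 0.12. Summed over the 36 members, sensitive HCT-116 cells went from 66.4 ± 3.63 TPM with uracil to 48.98 ± 2.39 TPM with 5-FU (SD, n = 3). Sensitive HT-29 cells went from 49.1 ± 4.09 to 60.5 ± 1.865 TPM, and sensitive DLD-1 cells from 52 ± 1.53 to 57.7 ± 2.45 TPM. These sums were not tested. In the resistant lines and the libraries labelled resistant HT-29, 0 members were called with edgeR or DESeq2. Without adjustment, edgeR's p was under 0.05 for 10 members lower and 1 higher in sensitive HCT-116, 1 and 3 in sensitive DLD-1, and 4 and 5 in sensitive HT-29 cells. It was under 0.05 for 5 members in resistant HCT-116, 1 in resistant DLD-1 and 1 in those libraries.

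Adding irradiation to 5-FU called 0 of 23 to 25 members in each of the 6 comparisons with edgeR and with DESeq2. At an unadjusted edgeR p under 0.05 there were between 0 and 5 members, the most in resistant DLD-1. Few genes of any kind were called, with 0% of all genes in sensitive HCT-116, 0% in sensitive DLD-1 and 0.00842% in sensitive HT-29 cells. In the groups labelled resistant it was 0.0261%, 0.142% and 0.434%, in the same order. The 5-FU response differed between resistant and sensitive cells by the call for ZNF100 alone, between libraries labelled resistant HT-29 and sensitive HT-29 cells (1.36 ± 0.34, edgeR adjusted p = 0.00178, with 2.48% of all genes higher). It was not called without resistant 5-FU replicate 3 or without resistant uracil replicate 1. In DLD-1 and HCT-116, where 3.12% and 6.11% of all genes were called, 0 members were called with edgeR or DESeq2, and 5 and 8 had an unadjusted p under 0.05.

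Other genes around the cluster and the corepressor partners were read off the same fits. Within the span, 77 further genes were listed, 1 of them protein-coding, and 7 were tested in HCT-116. Under uracil 4 of the 7 were lower in resistant cells, where 6.8% of all genes were, among them the lncRNA LINC00663 (chr19:19757366-19776423, -2.02 ± 0.29, edgeR adjusted p = 3.48e-06) and the pseudogene IPO5P1 (chr19:23255053-23257939, -2.50 ± 0.29, adjusted p = 2.52e-07), which lies just upstream of ZNF724. The others were the pseudogenes RPL7AP10 and VN1R83P, whose reads may belong to related copies. Of the 17 corepressor genes, from TRIM28 and SETDB1 to the HP1 and DNA methyltransferase genes, 0 were called between resistant and sensitive cells of DLD-1 or HCT-116 under uracil, with medians of -0.02 and 0.01. With 5-FU, 3 of the 17 were higher in resistant HCT-116 cells, where 5.28% of all genes were: TRIM28 by 1.01 ± 0.05, CBX5, an HP1 gene, by 1.10 ± 0.05, and the maintenance methyltransferase gene DNMT1 by 1.07 ± 0.04. UHRF1, the DNMT1 cofactor, joined them with irradiation added (1.08 ± 0.04), where 5.72% of all genes were higher. Summed over the 17, sensitive HCT-116 cells had a mean of 2318 TPM under uracil and 1831 TPM with 5-FU. Resistant HCT-116 cells had 2852 and 2910 TPM, and these sums were not tested. In DLD-1, 0 of 17 were called under any treatment.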

How the data were processed

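Poly(A)-selected RNA of 54 libraries was sequenced after a directional library kit. The authors trimmed reads with Trimmomatic 0.36, checked them with FastQC 0.11.8 and quantified transcripts of GRCh38.p13 with kallisto 0.44.0 (versions from the submitters' processing notes). Whether strand was used in quantification is not given in the sources used here. The deposited gene tables hold estimated counts and TPM per gene, which the authors obtained by summing over its transcripts. Transcript values came from the deposited values of each library. Estimated counts per gene were rounded for testing. kallisto divides reads shared by related genes, so values of close paralogues are uncertain.

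Comparisons within a line used edgeR 4.0.16 in R 4.3.3 (quasi-likelihood test, TMM scaling, filterByExpr) on the 18 libraries of that line, and comparisons between lines used all 54. P-values were adjusted over all genes tested by the Benjamini-Hochberg method. A gene was called at an adjusted p of 0.01 or less with at least a 2-fold difference. On simulated counts, 199 of 200 changed genes were recovered for HCT-116 (22975 genes), 200 of 200 for HT-29 (23756 genes) and 199 of 200 for DLD-1 (21814 genes). False calls numbered 1 for HCT-116, 3 for HT-29 and 0 for DLD-1. The changed genes were drawn from genes above a minimum mean level and were given changes larger than 2-fold. Recovery at the low counts of many members, or close to the 2-fold limit, was therefore not tested. Alternatives were DESeq2 1.42.0, RLE scaling, library size alone, no filter, a replicate block, the compared groups alone, and each library left out. Levels are means and SDs of TPM. Positions are from a GENCODE annotation of GRCh38 and promoter windows from RefSeq.

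The members and lists were chosen with earlier results of these data known. By the rule set for naming, library values are given for members called under uracil in DLD-1, in HCT-116, or between libraries labelled resistant HT-29 and sensitive HCT-116, up to 14 with at least 1 TPM in a group, and for ZNF708, ZNF91 and the member with the highest level; other comparisons name at most 6 called members. ZNF714 and uncalled values of those genes in other lines were added after their values had been seen. The comparison of libraries labelled resistant HT-29 with resistant HCT-116, and a fit without the 9 libraries labelled resistant HT-29, were added after the data had been seen. Depth ran from 39.0 to 218.5 M estimated counts, and low counts limit members under 1 TPM.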

Additional observations from a re-analysis of the deposited data

Results flagged for a closer look

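The effect of resistance under uracil differed between HCT-116 and DLD-1, by a direct edgeR test of HCT-116 minus DLD-1, for 10 members. On the log2 scale the differences were -5.07 for ZNF708, -4.45 for ZNF724, -3.77 for ZNF91, -3.42 for ZNF675, -3.31 for ZNF85, -2.46 for ZNF100, -1.46 for ZNF430, -1.3 for ZNF714 and -1.1 for ZNF14. ZNF253 gave 6.89, on at most 7.02 counts in any library of the 4 groups, so its size is not interpretable. The 5-FU response differed between libraries labelled resistant HT-29 and sensitive HT-29 cells for ZNF100, by 1.36. These groups carry different lines' marker genes, so line and resistance cannot be told apart in that value.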

How the results depend on the processing

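In the comparisons of resistant with sensitive labels, and of HCT-116 cells with the libraries labelled resistant HT-29, called members kept their direction in the alternatives run and most kept their call (444 of 450 values under other settings and 440 of 450 with a library left out). With library size alone, 0 members were higher in resistant DLD-1 cells with 5-FU (ZNF708 0.96) and 0 with irradiation added (ZNF708 0.97), 0 were called for 5-FU in sensitive HCT-116 cells, and 4 were higher in libraries labelled resistant HT-29 against sensitive HT-29 cells under uracil. That scaling moved the median of all genes by 0.26 in the last comparison, where 3322 genes were lower and 6129 higher against 4266 and 5092, and it put ZNF66 under 2-fold there in all 3 treatments (-0.96, -0.97 and -0.89). Without a filter, 1 member was higher in resistant HCT-116 cells under uracil. The summed level differed by 4.13 TPM in resistant DLD-1 and by -30.7 TPM in resistant HCT-116. As a median of log2(TPM + 1), which low members set, the differences were -0.0322 and 0.0106. These had the opposite sign but lay within the SD of the sensitive libraries (0.095 in DLD-1 and 0.054 in HCT-116), so the median showed no clear difference. The cause of the other changes was not tested.

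With a library left out, counts ranged as follows. In resistant DLD-1 cells, members higher ranged from 1 to 2 under uracil and with 5-FU and from 0 to 1 with irradiation, and members lower with irradiation from 1 to 2. In resistant HCT-116 cells, members higher under uracil ranged from 0 to 1 (1 without sensitive replicate 2) and members lower with 5-FU from 8 to 10. Members called for 5-FU in sensitive HCT-116 cells ranged from 0 to 1, for the HCT-116 response difference from 0 to 1 (1 without resistant uracil replicate 3 or sensitive uracil replicate 2), and for that of HT-29 from 0 to 2 (2 without resistant uracil replicate 2). For resistant against sensitive HT-29 labels, members lower ranged from 9 to 10 in each treatment.

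Same-numbered libraries did not deviate together (median correlation 0.00835 in HCT-116, 0.00845 in HT-29 and -0.00101 in DLD-1), so the numbers do not pair them. A replicate block took ZNF493 in libraries labelled resistant HT-29 against sensitive HCT-116 to -0.96 and left 6 members lower there.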
